A study of Mus musculus with 9 samples.

Results

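The nuclear-encoded subunits of the oxidative phosphorylation system, together with the assembly factors that carry the same gene names, were followed in crypts of the mouse jejunum. They were chosen by gene symbol alone: all genes beginning with Nduf, Uqcr or Atp5, all beginning with Cox4 to Cox8, and Sdha, Sdhb, Sdhc, Sdhd and Cyc1. The rule found 93 of the 23951 genes in the deposited tables, namely 36 subunits and 7 assembly factors of complex I, 4 subunits of complex II, 9 of complex III, 20 of complex IV, 15 of complex V, and the pair Atp5s and Atp5sl. RNA was sequenced from 9 libraries, 3 in each of 3 groups. Smad4 KO mice had the genotype Smad4f/f;Villin-CreER(T2), in which tamoxifen activates a recombinase of the intestinal epithelium that deletes the floxed Smad4 alleles. Double mutants (Smad4f/f; Ex3f/+;Villin-CreER(T2)) had in addition 1 Ctnnb1 allele that loses exon 3, the exon with the phosphorylation sites through which beta-catenin is marked for degradation. Tamoxifen was given to both kinds of mutant for 4 days, and crypts were taken 1 day later. Control mice are labelled as vehicle treated, whereas the design text has them without injection, and their genotype is not given. Recombination is limited to epithelium by the Villin promoter, so Smad4 in any other cell of the preparation is untouched. Tamoxifen and recombinase activity were confined to the mutants as far as the labels tell, and their effects cannot be told apart from those of the genotype. The libraries of a group are numbered 0, 1 and 2. The labels do not say that each came from a separate mouse, so p-values measure the spread between these libraries.

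Oxidative phosphorylation couples the oxidation of NADH and succinate to the synthesis of ATP across the inner mitochondrial membrane. Complexes I and II feed electrons into ubiquinone, complex III passes them to cytochrome c, complex IV hands them to oxygen, and complex V, the ATP synthase, uses the proton gradient that complexes I, III and IV build. Most of the subunits are encoded in the nucleus and imported, while a few core proteins come from mitochondrial DNA. In the intestine, crypt base cells and absorptive enterocytes differ in their mitochondrial content and metabolism, and Wnt and BMP/Smad signals act along that axis.

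The deposited unit was FPKM, in which fragments are scaled by the length of the transcript and the size of the library, so that genes can be compared. The sum of FPKM ran from 568081 to 752340 per library in the Smad4 KO table and from 573491 to 758719 in the double mutant table, and read depth is unknown. Each comparison was fitted with limma in its own table on log2(FPKM + 1), where a gene needed an average of 1 FPKM to be tested and an adjusted p below 0.05 to be called. Both comparisons use the same 3 control libraries and are therefore not independent. Smad4 itself fell by 2.13 on the log2 scale in Smad4 KO crypts (limma adjusted p = 0.00664) and fell by 2.21 in double mutant crypts (adjusted p = 0.00176). The summed level of 12 enterocyte markers was 14830, 1227 and 2471 FPKM in Smad4 KO libraries 0, 1 and 2, against 4121, 5431 and 11323 FPKM in controls 0, 1 and 2. Smad4 KO library 0 thus stood above all controls and the other 2 Smad4 KO libraries below them. Its Paneth cell markers summed to 10246 FPKM, against 57503 to 143467 FPKM in the controls. Among markers of other cells, 3 of 6 immune markers were called lower in double mutants, where 9.09% of all genes were. Their sums overlapped, with 430, 897 and 711 FPKM in double mutants 0, 1 and 2 against 827, 514 and 1334 FPKM in controls. Of 5 crypt base stem cell markers 2 were called higher, where 9.39% of all genes were. These sums overlapped too, with 911, 1318 and 1541 FPKM in double mutants against 1118, 1633 and 695 FPKM in controls. Fibroblast and endothelium markers summed to 88.1 FPKM in Smad4 KO 2 and 55.7 FPKM in double mutant 0, against 5.20 to 9.05 FPKM in controls, and red blood cell markers to 38.9 and 27.1 FPKM in the same libraries, against 1.29 to 4.80 FPKM in controls. Their part in the results was not tested.

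In control crypts, transcript levels within the system spanned more than 2 orders of magnitude per length (control means of the double mutant table). Atp5b, the catalytic beta subunit of ATP synthase, was highest at 1496 ± 193 FPKM (SD, n = 3), followed by Atp5g3 at 1431 and Cox4i1 at 1265 FPKM. The group median over tested genes was 409 FPKM for complex V (14 of 15 genes) and 399 FPKM for complex IV (14 of 20). It was 357 FPKM for complex III, 309 FPKM for complex II and 159 FPKM for the complex I subunits. Genes below the filter, most of them in complex IV, are left out of these medians. Complex I assembly factors, which build the complex but do not stay in it, lay far lower: their levels ran between 5.48 FPKM for Ndufaf5 and 24.1 FPKM for Ndufaf2. The 4 subunits of complex II were the most even set, with the highest (Sdhd) at 1.38 times the lowest (Sdhb). Over tested genes, this ratio was 4.39 in the assembly factors, 5.35 in complex III, 62.3 in complex I subunits, 64.9 in complex V and 294 in complex IV. It can only grow as genes are added to a set, and complex II is small. In complexes I and V the lowest subunits were Ndufab1, the mitochondrial acyl carrier protein, at 8.19 FPKM and Atp5l, subunit g of ATP synthase, at 23.0 FPKM.

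Low listed values went with near-identical copies. Of the 9 tested subunits below 50 FPKM in controls, 7 had at least 1 other annotated transcript that matched over 80% of their coding sequence at 95% identity or more, against 13 of the 68 subunits at or above 50 FPKM and 0 of the 7 assembly factors. The limit of 50 FPKM was chosen after the values were seen. Atp5l had 8 such entries, and how reads were shared among copies was not stated, so levels of these genes are uncertain. Of the 93 genes, 7 were below the filter in both tables: Atp5g2, Cox4i2, Cox6a2, Cox7b2, Cox8b, Cox8c and Ndufa4l2. Cox7b2, Cox8b and Cox8c were listed at 0 in every library.

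**Figure D1:**
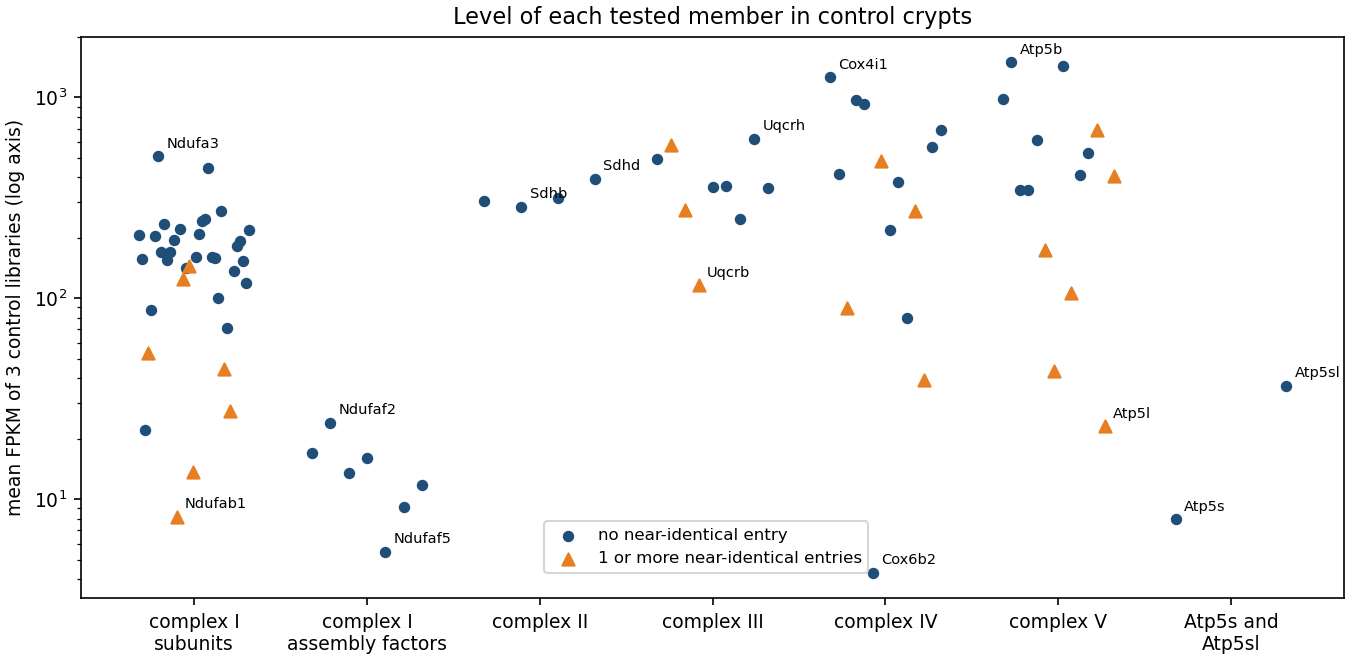
Mean FPKM of the 3 control libraries (log axis, double mutant table) for the 86 tested genes, by complex, with triangles for genes that have at least 1 near-identical annotated transcript. Atp5b at 1496 FPKM is the highest, complex II genes lie close together between 286 and 393 FPKM, and most of the low subunits are triangles.

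In double mutant crypts, 3 of the 86 tested genes rose (Ndufaf3, Ndufaf6 and Cox6b2) and 5 fell (Cox7a1, Sdhc, Sdha, Atp5h and Atp5sl). Over all 11762 genes tested there, 9.39% rose and 9.09% fell, so the share of members called was below the background in both directions. Most members nevertheless lay on the lower side: 68 of 86 had a negative log2 fold change, a share of 79.1%, against 50.1% of all genes. Their median was −0.19, against −0.00 for all genes tested and −0.05 for the 836 genes that averaged 100 FPKM or more. At an unadjusted p below 0.05, 5 members were higher and 17 lower, against 18.2% and 18.4% of all genes. The 3 double mutant libraries lay below all 3 controls for 21 members (24.4%), which is close to the 21.3% of all genes, and above all controls for 6 members, against 21.3% of all genes. In bulk RNA, fewer cells of a type and less RNA per cell cannot be told apart.

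In Smad4 KO crypts, 0 of the 86 tested genes were called by limma in either direction. The background was as low, with 0.00844% of 11849 genes called higher and 0.0253% called lower. At an unadjusted p below 0.05, 1 member was higher and 22 were lower, where 9.76% and 9.34% of all genes were. A negative fold change was seen for 73 of 86 members (84.9%), against 50.4% of all genes. Their median was −0.23, against −0.00 for all genes and −0.08 for the 805 genes that averaged 100 FPKM or more. All 3 Smad4 KO libraries lay below all 3 controls for 28 members (32.6%), against 12.2% of all genes tested and 12.7% of the genes of at least 100 FPKM. A single member, Ndufaf3, lay above all controls, against 14.2% of all genes. Without Smad4 KO library 0, which stood apart in its enterocyte and Paneth cell markers, 0 members were called as well and the median was −0.28.

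**Figure D2:**
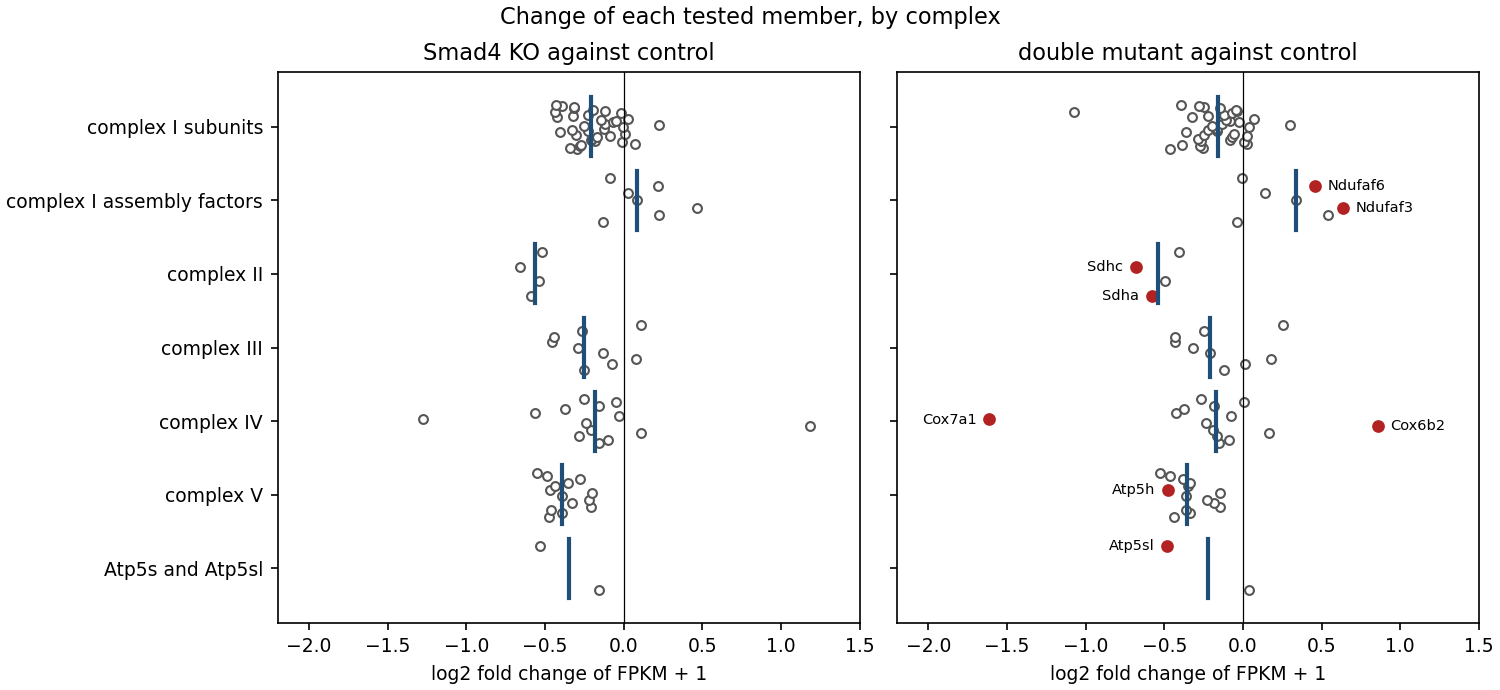
Log2 fold change of FPKM + 1 for each tested gene (points) in Smad4 KO (left) and double mutant (right) crypts against control, by complex, with called genes filled and a vertical bar at each group's median. Complex II and complex V lie wholly left of 0 in both panels, and the complex I assembly factors lie mostly to the right of it.

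Complex II, succinate dehydrogenase, had the lowest group median in both comparisons (−0.56 in Smad4 KO and −0.54 in double mutant crypts, 4 genes). It is both a respiratory complex and an enzyme of the tricarboxylic acid cycle. Sdhc, a membrane anchor that helps hold the haem and the ubiquinone site, stood at 178, 219 and 189.6 FPKM in double mutant libraries 0, 1 and 2, against 274, 342 and 326 FPKM in the controls. Sdhc fell by 0.68 on the log2 scale in double mutant crypts (SE 0.14, limma adjusted p = 0.0289), with no overlap between the groups. Sdha, the flavoprotein that oxidises succinate, had 181, 219 and 205 FPKM in double mutant crypts, against 263, 352 and 295 FPKM in control crypts. Its fall of 0.58 (SE 0.15, limma adjusted p = 0.0469) was just past the threshold, again with all double mutants below all controls. Sdhb, the iron-sulfur subunit, averaged 200.5 ± 9.87 FPKM in double mutant and 286 ± 44.3 FPKM in control crypts (SD, n = 3 each; log2 fold change −0.50, limma adjusted p = 0.066). Sdhd, the other membrane anchor, had 273, 343 and 274 FPKM in double mutants, against 332, 409 and 439.9 FPKM in controls, so that double mutant 1 overlapped with control 0. Its difference was −0.40 (limma adjusted p = 0.139).

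The 4 genes stood at similar values in Smad4 KO crypts. Sdhc had 169, 205 and 195 FPKM in Smad4 KO libraries 0, 1 and 2, against 265, 323 and 313 FPKM in controls (log2 fold change −0.66, SE 0.15, limma adjusted p = 0.13). Sdha had 223, 209 and 149.8 FPKM in Smad4 KO crypts, against 255, 332 and 283 FPKM in controls (log2 fold change −0.59, limma adjusted p = 0.207). Sdhb differed by −0.54 (adjusted p = 0.201) and Sdhd by −0.52 (adjusted p = 0.18, both limma). For each of the 4, all Smad4 KO libraries were below all controls, which held for 12.2% of all genes tested. None of the 4 was called. In double mutants, the calls of Sdha and Sdhc ended when any single double mutant library, control 1 or control 2 was left out. For Sdhc the limma adjusted p was then between 0.0538 and 0.117. With all libraries kept, both calls ended after quantile normalization (limma adjusted p = 0.106 for Sdha and 0.0512 for Sdhc). Both also ended with inferred sex as a covariate (0.0890 and 0.0571). That of Sdha ended as well with no filter on low values (0.0683) and with equal sums without the 50 highest genes (0.0813). Of 12 enterocyte markers, 9 were called lower in double mutants, with sums of 1300, 2437 and 2339 FPKM in double mutant libraries 0, 1 and 2 against 4250, 5755 and 11810 FPKM in controls, and their part in these results was not tested.

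**Figure D3:**
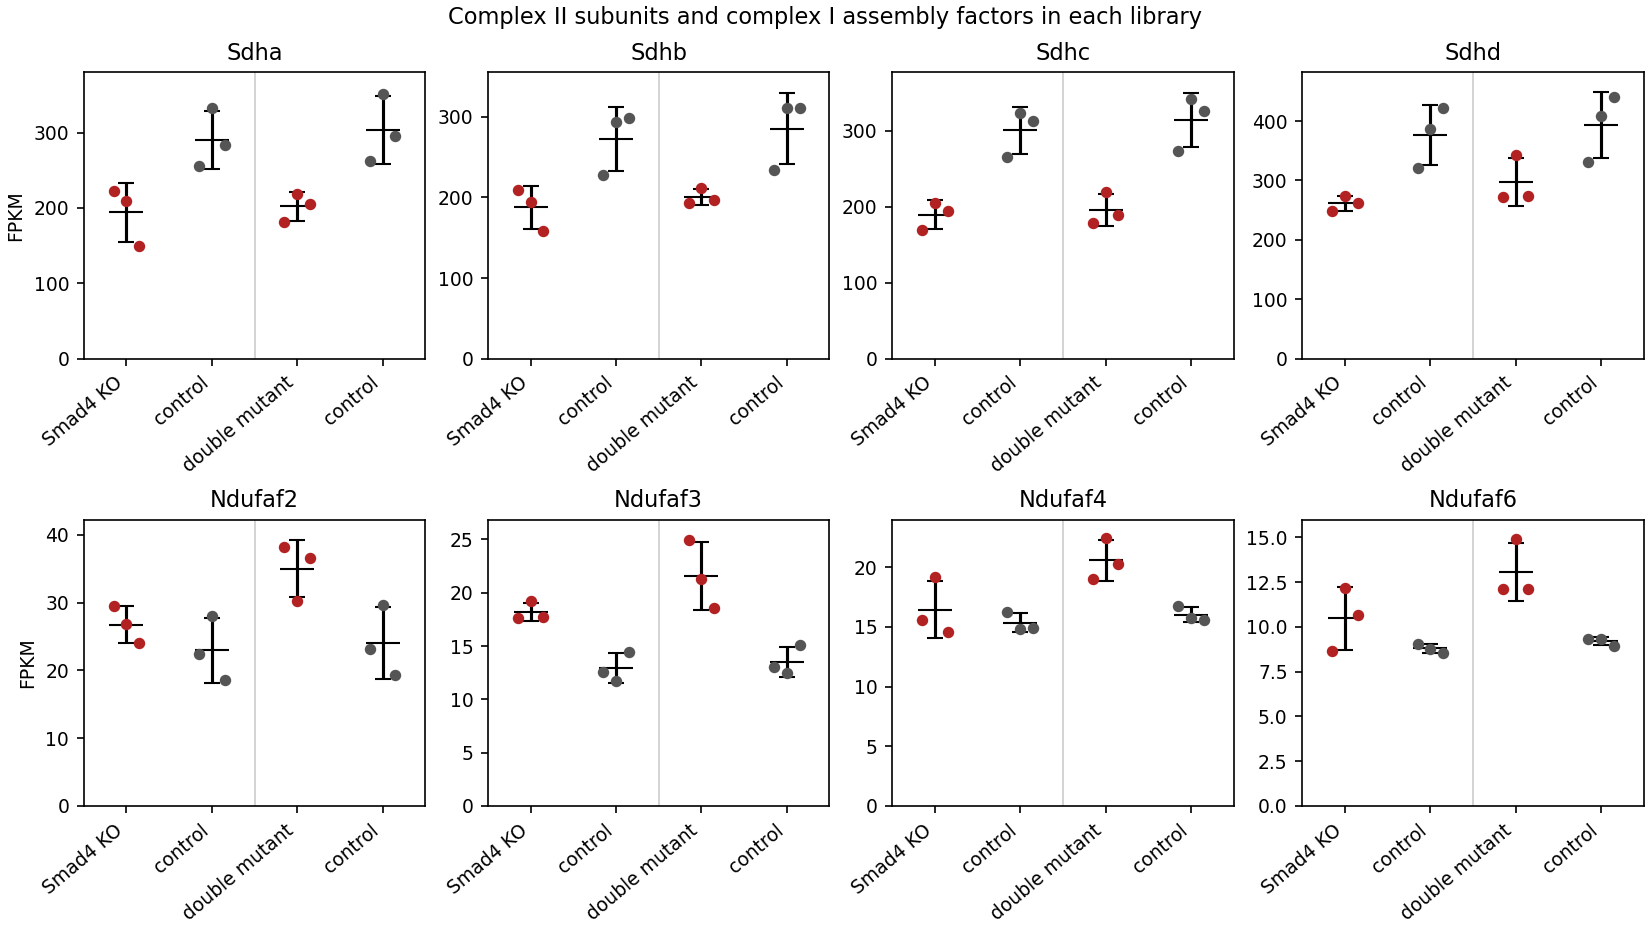
FPKM of the 4 complex II genes (top) and of 4 complex I assembly factors (bottom) in each library, with each mutant group left of the controls of its own table. Horizontal bars are means and vertical bars SD (n = 3). All Smad4 KO points of the upper panels lie under the control points, and all double mutant points of the lower panels lie over them.

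The start of Sdha is shown because it holds the densest run of sites for a regulator of respiratory genes among the called members that have a RefSeq entry. Windows of 300 bases, 250 of them before the start, were taken from RefSeq (GRCm38.p6) by gene symbol for 76 of the 93 genes and searched on both strands. The site of NRF1, a factor known to act on respiratory genes, was spelled GCGCA, any base, GCGC and found in 25.0% of the 76 genes, against 5.19% of 27025 genes. Windows of members are also richer in CpG, which this site contains, with a median of 20 CpG and 58.0% GC, against 7 CpG and 52.7% GC over all windows. The ETS site CCGGAAG was in 22.4% of members against 9.93% of all genes, and the YY1 core ATGGCGG in 15.8% against 4.69%. The E-box CACGTG was in 9.21% against 8.09%, and the TCF site CTTTGAA, read by the partners of beta-catenin, in 2.63% against 5.93%. The SMAD element GTCTAGAC was in 0% of the members and 0.248% of all genes. A match describes letters and is no evidence of binding. By complex, NRF1 sites were in 7 of 32 complex I subunits, 2 of 3 complex II genes and 1 of 5 complex III genes. They were in 1 of 14 complex IV genes, 6 of 14 complex V genes and 2 of 6 complex I assembly factors. The 250 bases before the start of Sdha (chr13:74350241-74350490, minus strand) hold 3 NRF1 sites. Those before Atp5h (chr11:115419920-115420169, minus strand), which also fell in double mutants, hold 1 NRF1 site and, closer to the start, 1 ETS site. The bases after this start of Atp5h were found in no supplied GENCODE transcript of the gene, so distances to it are uncertain. Capitals mark these sites, on either strand.
Sdha: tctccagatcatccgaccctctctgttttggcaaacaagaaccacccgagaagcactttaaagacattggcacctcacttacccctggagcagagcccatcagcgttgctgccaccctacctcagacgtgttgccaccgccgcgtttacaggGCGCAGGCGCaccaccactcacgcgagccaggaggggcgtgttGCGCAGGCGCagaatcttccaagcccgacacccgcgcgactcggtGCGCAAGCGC
Atp5h: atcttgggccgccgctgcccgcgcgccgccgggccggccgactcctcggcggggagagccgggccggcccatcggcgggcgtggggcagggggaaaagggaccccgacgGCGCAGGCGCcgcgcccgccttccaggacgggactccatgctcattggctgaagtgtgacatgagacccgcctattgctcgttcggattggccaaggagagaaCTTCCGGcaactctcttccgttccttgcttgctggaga

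Complex V was lower on average in every tested gene: all 14 had a negative fold change in both comparisons, with medians of −0.39 in Smad4 KO and −0.36 in double mutant crypts. Atp5h, subunit d of the peripheral stalk, had 81.4, 73.5 and 72.5 FPKM in double mutant libraries 0, 1 and 2, against 96.0, 116 and 107 FPKM in the controls. It fell by 0.48 (SE 0.11, limma adjusted p = 0.0353) and was the single complex V gene called. Its Smad4 KO values were 68.3, 79.8 and 71.1 FPKM, against 93.1, 109.6 and 102 FPKM in controls, without overlap (log2 fold change −0.47, limma adjusted p = 0.15). Atp5h has 3 near-identical pseudogene entries, and its call ended without any single double mutant library, control 1 or control 2 (adjusted p up to 0.138). Atp5o, the stalk protein that confers oligomycin sensitivity, had 282, 301 and 262 FPKM in double mutants, against 344, 423 and 457 FPKM in controls. Its log2 fold change was −0.52 there (limma adjusted p = 0.0589) and −0.55 in Smad4 KO crypts (263, 274 and 256 FPKM against 334, 399 and 438 FPKM in controls, adjusted p = 0.17). The groups did not overlap in either comparison.

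Catalytic subunits of ATP synthase were in the same range of differences. Atp5a1, the alpha subunit, had 674, 739 and 612 FPKM in Smad4 KO crypts, against 827, 1017 and 972 FPKM in controls (log2 fold change −0.47, limma adjusted p = 0.258). In double mutants its difference was −0.44 (adjusted p = 0.136). Atp5b had 1033, 1357 and 1162 FPKM in double mutants, against 1276, 1642 and 1569 FPKM in controls, so that double mutant 1 was above control 0 (log2 fold change −0.34, limma adjusted p = 0.286). Over the complex, 8 of 14 genes had all Smad4 KO libraries below all controls, against 12.2% of all genes. All double mutants were below for 6 of 14, against 21.3% of all genes. Atp5g1 and Atp5g3 encode the same c subunit of the membrane ring behind different import leaders, and Atp5g3 made up nearly all of the transcript. Atp5g1 as a share of the pair was 2.07%, 2.91% and 2.66% in double mutant libraries 0, 1 and 2, against 3.09%, 3.13% and 2.63% in controls, which overlap. The remaining copy, Atp5g2, was listed at no more than 0.555 FPKM in any library and has near-identical entries of its own.

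Atp5sl and Atp5s carry the ATP synthase stem in their symbols but are not subunits of the enzyme. Atp5sl, annotated as Dmac2 in GENCODE and known in human cells as a factor for the distal membrane arm of complex I, had 28.6, 25.2 and 24.4 FPKM in double mutants, against 34.5, 36.0 and 39.7 FPKM in controls. It fell by 0.48 (SE 0.10, limma adjusted p = 0.0293). The Smad4 KO libraries had 22.8, 23.8 and 25.2 FPKM, against 33.5, 33.9 and 38.0 FPKM in controls (−0.53 on the log2 scale with SE 0.10; limma adjusted p = 0.111), the smallest adjusted p of any member there. The groups were well apart in both tables, yet the call ended without any single double mutant library, control 1 or control 2 (adjusted p up to 0.119). Atp5s differed by 0.04 in double mutants and by −0.16 in Smad4 KO crypts, with overlapping groups.

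Complex I splits into its subunits and the factors that assemble it, and the signs of their fold changes differed. Of the 36 subunits, 32 had a negative fold change in Smad4 KO crypts and 30 in double mutants, with medians of −0.21 and −0.16, and 0 were called in either comparison. At an unadjusted p below 0.05, 8 were lower in Smad4 KO crypts, against 9.34% of all genes. In double mutants 5 of the 36 were, against 18.4% of all genes. The 7 core subunits, which carry the flavin and iron-sulfur centres, were negative in both comparisons, with medians of −0.31 in Smad4 KO and −0.22 in double mutants. For 6 of these 7 all Smad4 KO libraries lay below all controls, against 12.2% of all genes. In double mutants this held for 2 of 7, against 21.3% of all genes. Ndufs1, the largest iron-sulfur subunit of the NADH-oxidising arm, had 76.9, 76.7 and 61.6 FPKM in Smad4 KO crypts, against 90.2, 99.6 and 99.3 FPKM in controls. Its log2 fold change was −0.43 (SE 0.13, limma adjusted p = 0.182), and in double mutants it was −0.32 (71.5, 88.5 and 81.2 FPKM, against 93.0, 106 and 104 FPKM in controls, adjusted p = 0.0994). Ndufv3, an accessory subunit of the same arm, was at −0.43 in Smad4 KO (adjusted p = 0.176) and −0.39 in double mutant crypts (adjusted p = 0.0959, limma), without overlap in either.

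Among the 29 accessory subunits, the medians were −0.17 in Smad4 KO and −0.14 in double mutant crypts. Ndufa1, a small subunit of the membrane arm, had 164, 145 and 135 FPKM in double mutants, against 172, 210.2 and 235 FPKM in controls (log2 fold change −0.47, limma adjusted p = 0.0824). Ndufb10 averaged 160.0 ± 11.9 FPKM in Smad4 KO and 212 ± 14.0 FPKM in control crypts (SD, n = 3 each; log2 fold change −0.40, limma adjusted p = 0.185). Ndufb6, also of the membrane arm, was one of the few with a positive value, 0.23 in Smad4 KO and 0.30 in double mutants, and its groups overlapped in both. It was singled out after its values were seen, as was Ndufs5, which varied most within groups. Ndufs5 was listed at 47.3, 0.000445 and 41.6 FPKM in double mutant libraries 0, 1 and 2, against 40.4, 24.3 and 17.2 FPKM in controls, and nothing can be read from its fold change.

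The assembly factors of complex I with Ndufaf symbols were the one group of members with a positive median in both comparisons. It was 0.34 in double mutant and 0.09 in Smad4 KO crypts (7 genes). Complex I factors with other symbols were counted in a separate list, given further below. The Smad4 KO median turned to −0.02 without Smad4 KO library 1. Ndufaf3, which works with Ndufaf4 on early assembly intermediates, had 24.9, 21.3 and 18.5 FPKM in double mutants, against 13.0, 12.5 and 15.1 FPKM in controls. It rose by 0.63 (SE 0.13, limma adjusted p = 0.029). Its level was 17.6, 19.2 and 17.8 FPKM in Smad4 KO crypts, against 12.6, 11.8 and 14.4 FPKM in controls, also without overlap (log2 fold change 0.46, limma adjusted p = 0.137). Ndufaf6 had 12.1, 14.9 and 12.1 FPKM in double mutants, against 9.34, 9.31 and 8.93 FPKM in controls, and rose by 0.46 (SE 0.11, limma adjusted p = 0.0366). Its values of 8.64, 12.2 and 10.7 FPKM in Smad4 KO crypts overlapped with the 9.05, 8.79 and 8.56 FPKM of the controls (log2 fold change 0.22). Both genes are needed for complex I assembly in human cells.

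Ndufaf4 and Ndufaf2 lay above all controls in the double mutants without being called. Ndufaf4 had 19.0, 22.4 and 20.2 FPKM in double mutants, against 16.8, 15.7 and 15.6 FPKM in controls (log2 fold change 0.34, limma adjusted p = 0.052). Ndufaf2, a late factor that stands in for a subunit in an intermediate, had 38.2, 30.3 and 36.6 FPKM in double mutants, against 23.1, 29.7 and 19.3 FPKM in controls (log2 fold change 0.54, limma adjusted p = 0.0799). For Ndufaf1, Ndufaf5 and Ndufaf7 the double mutants overlapped with controls, with differences between −0.04 and 0.14. The call of Ndufaf6 ended when any of the 6 libraries was left out, and that of Ndufaf3 when any but control 2 was (limma). Ndufaf3 shares 48 of 1487 exonic bases with Impdh2 on the opposite strand, and the kit does not mark strand. Of 7 proliferation markers, 2 were called higher in double mutants, with overlapping sums of 319, 409 and 373 FPKM in double mutant libraries 0, 1 and 2 against 266, 349 and 239 FPKM in controls, and their part was not tested.

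Complex III had medians of −0.25 in Smad4 KO and −0.21 in double mutant crypts over 9 genes, with 0 called by limma in either. In each, 2 were lower at an unadjusted p below 0.05, where 9.34% and 18.4% of all genes were. Uqcrfs1, the Rieske iron-sulfur protein that takes the first electron from ubiquinol, had 175, 179 and 170.1 FPKM in Smad4 KO crypts, against 216, 252 and 248 FPKM in controls. Its log2 fold change was −0.44 (SE 0.12, limma adjusted p = 0.169). In double mutants it had 182, 208 and 165 FPKM, against 223, 267 and 259 FPKM in controls (−0.43, adjusted p = 0.0753), and groups were apart in both tables. Uqcrc2, a core protein of the matrix side, differed by −0.45 in Smad4 KO (adjusted p = 0.249) and −0.43 in double mutant crypts (adjusted p = 0.107, limma), also without overlap. It shares 504 of 1896 exonic bases with Pdzd9 on the opposite strand. Uqcrq, a small subunit near cytochrome b, went the other way in double mutants, with 482, 398 and 392 FPKM against 329, 374 and 358 FPKM in controls (0.26, limma adjusted p = 0.238). Uqcrh, the hinge protein and the highest of the complex, differed by −0.26 in Smad4 KO and −0.25 in double mutant crypts, with overlap.

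Complex IV, cytochrome c oxidase, held both the largest fall and the largest rise of the tested members in double mutants, and both were in isoforms known from other tissues. Several of its subunits exist as pairs encoded by different genes, one for most tissues and one for muscle, testis or lung. Cox7a1, the isoform of heart and skeletal muscle, had 63.0, 78.7 and 64.6 FPKM in double mutant libraries 0, 1 and 2, against 152, 209.6 and 298 FPKM in controls. Double mutants thus reached 31.3% of the control mean, with the groups well apart. Cox7a1 fell by 1.61 on the log2 scale (SE 0.25, limma adjusted p = 0.0169). The call ended without double mutant 0 (adjusted p = 0.0647) or double mutant 2 (adjusted p = 0.0777). Its partner Cox7a2, the isoform of most tissues, had 404, 357 and 314 FPKM in double mutants, against 304, 377 and 461 FPKM in controls, with full overlap (log2 fold change −0.07, limma adjusted p = 0.807).

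In Smad4 KO crypts Cox7a1 split by library, with 165, 53.2 and 65.4 FPKM in libraries 0, 1 and 2, against 147, 198 and 285 FPKM in controls. Library 0 lay within the controls, and the other Smad4 KO libraries lay below them (log2 fold change −1.27, SE 0.47, limma adjusted p = 0.234). As a share of Cox7a1 plus Cox7a2, which is free of any scaling of the library, Cox7a1 was 27.3%, 14.1% and 17.5% in Smad4 KO libraries, against 33.3%, 35.7% and 39.2% in controls. In double mutants the share was 13.5%, 18.1% and 17.1%, against the same control values. It averaged 19.6% ± 6.87 in Smad4 KO, 16.2% ± 2.41 in double mutant and 36.1% ± 2.99 in control crypts (SD, n = 3 each). All mutant libraries, Smad4 KO 0 included, lay below all controls, for which an exact permutation test (two-sided) gave p = 0.1 in either table, its lower limit with 3 against 3.

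Markers of striated muscle other than Acta1 were near 0 in all groups. Of 7 markers, Myh4, Tnnt3, Mb, Myl2 and Actc1 were at or below 0.1 FPKM in every library, and their summed level, carried almost wholly by Acta1, was 7.39, 6.54 and 13.4 FPKM in double mutants, against 2.29, 1.32 and 1.54 FPKM in controls. Acta1, the one tested marker of the list, was called higher there (log2 fold change 1.91), and in Smad4 KO crypts the sums were 12.7, 9.23 and 9.67 FPKM, against 2.22, 1.24 and 1.48 FPKM in controls. Of 5 adipocyte markers only Cidec was tested and reached 1 FPKM in any library. It was called lower in double mutants (log2 fold change −1.19). The adipocyte sums were 3.43, 4.50 and 3.82 FPKM in double mutants, against 8.04, 9.22 and 12.2 FPKM in controls. In Smad4 KO libraries 0, 1 and 2 they were 22.5, 1.31 and 4.71 FPKM, against 7.80, 8.70 and 11.7 FPKM in controls. Plin1 and Ucp1 were at or below 0.1 FPKM everywhere, and the part of these markers was not tested. Smooth muscle markers summed to under 2 FPKM in all libraries. Within each of the 3 groups, Cox7a1 and the summed enterocyte markers had the same library order. Both were highest in Smad4 KO library 0, double mutant 1 and control 2, and the part of these markers in Cox7a1 was not tested. The sequence before the start of Cox7a1 is set beside that of Cox7a2, since Cox7a1 fell in double mutants and Cox7a2 was not called. None of the 6 motifs was found in either. The 250 bases hold 4 CpG for Cox7a1 (chr7:30183921-30184170, plus strand) and 14 for Cox7a2 (chr9:79759854-79760103, minus strand).
Cox7a1: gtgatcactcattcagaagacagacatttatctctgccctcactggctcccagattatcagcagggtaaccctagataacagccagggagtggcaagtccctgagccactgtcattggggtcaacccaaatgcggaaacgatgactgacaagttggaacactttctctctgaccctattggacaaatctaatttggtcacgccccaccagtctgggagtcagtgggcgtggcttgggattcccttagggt
Cox7a2: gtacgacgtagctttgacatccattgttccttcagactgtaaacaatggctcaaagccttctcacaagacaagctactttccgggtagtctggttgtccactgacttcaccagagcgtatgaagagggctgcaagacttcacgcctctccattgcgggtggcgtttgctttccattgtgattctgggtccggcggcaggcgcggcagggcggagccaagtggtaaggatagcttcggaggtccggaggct

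Cox6b2, the testis isoform of subunit 6b, rose in double mutants by 0.86 (SE 0.23, limma adjusted p = 0.0497), barely past the threshold. Its values were 8.71, 8.40 and 7.82 FPKM in double mutants, against 2.67, 4.35 and 5.91 FPKM in controls. Smad4 KO libraries had 24.8, 4.34 and 9.44 FPKM, against 2.59, 4.11 and 5.66 FPKM in controls. Libraries 0 and 2 were above all controls and library 1 was within them (log2 fold change 1.19, limma adjusted p = 0.325), and without library 0 the difference was 0.59. It remained a minor transcript: of Cox6b2 plus Cox6b1, it made up 0.961%, 1.06% and 1.07% in double mutants, against 0.366%, 0.449% and 0.543% in controls, and 0.616% to 2.50% in Smad4 KO crypts. Mutant shares lay above control shares in both tables (exact permutation p = 0.1 each, the smallest possible). Cox6b1, the common isoform, had 897, 785 and 724 FPKM in double mutants, against 727, 965 and 1083 FPKM in controls, and the groups overlapped. The call of Cox6b2 ended without any single double mutant library, control 0 or control 1 (limma adjusted p up to 0.135). It was lost in 12 of the 16 alternatives, some of them with all libraries kept. Examples are no filter on low values (limma adjusted p = 0.0895), quantile normalization (0.0540) and inferred sex as a covariate (0.0833).

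The remaining isoform pairs were dominated by 1 partner. Cox4i1 had 1206, 1095 and 1076 FPKM in double mutants, against 1009.6, 1312 and 1473 FPKM in controls (log2 fold change −0.15, limma adjusted p = 0.626), while Cox4i2, known from lung, was listed at no more than 0.293 FPKM. Cox6a1 differed by 0.17 and Cox8a by 0.01 in double mutants, and both had overlapping groups. Cox6a2, the muscle isoform of subunit 6a, was under the filter: it was listed at 0.151, 0 and 0.191 FPKM in double mutants, against 0.744, 0.564 and 1.69 FPKM in controls. Cox7b differed by −0.37 in both comparisons and Ndufa4, a subunit now placed in complex IV, by −0.25 in Smad4 KO and −0.26 in double mutants, none of them called. Cox7a2l, a factor for supercomplexes of complexes III and IV, had 42.1, 59.1 and 50.9 FPKM in Smad4 KO crypts, against 63.8, 97.9 and 67.1 FPKM in controls (log2 fold change −0.57, limma adjusted p = 0.234), without overlap. In double mutants its groups overlapped (−0.43, adjusted p = 0.228).

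**Figure D4:**
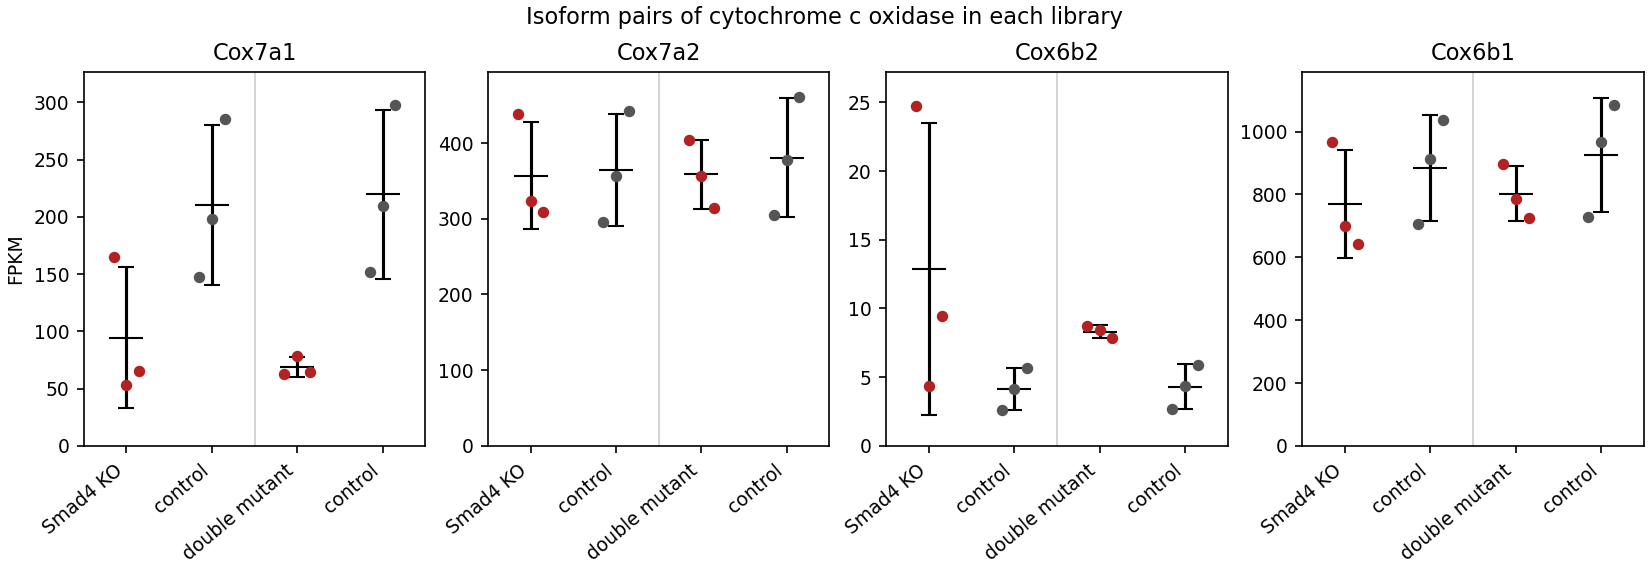
FPKM of Cox7a1, Cox7a2, Cox6b2 and Cox6b1 in each library, with each mutant group left of the controls of its own table, bars for mean and SD (n = 3). Double mutant points of Cox7a1 lie between 63.0 and 78.7 FPKM, under all controls, while those of Cox7a2 lie among them, and Smad4 KO library 0 stands apart from the other Smad4 KO points in Cox7a1 and Cox6b2.

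Library by library, the median of all members relative to the control mean was −0.14, −0.23 and −0.31 in Smad4 KO libraries 0, 1 and 2, against −0.17, 0.06 and 0.09 in controls 0, 1 and 2. In double mutants it was −0.12, −0.13 and −0.27, against −0.19, 0.08 and 0.09 in controls. Control 0 therefore stood among the mutants, and the groups overlapped on this summary. Without control 0 the median log2 fold change of the members was −0.31 in both comparisons, and 8 members were called lower and 0 higher in double mutants. Complex II was apart in every library: its median was −0.48, −0.47 and −0.69 in Smad4 KO and −0.64, −0.44 and −0.54 in double mutant libraries, against −0.20 to 0.11 and −0.22 to 0.13 in the controls of the same tables. Complex V also separated in Smad4 KO (−0.29, −0.34 and −0.50, against −0.19, 0.12 and 0.07 in controls), while double mutant 1 at −0.20 was level with control 0 at −0.21. Complex IV did not separate in either table, with Smad4 KO library 0 at 0.11 and control 0 at −0.29. Neither did the complex I subunits, with Smad4 KO library 0 at −0.10 and control 0 at −0.14. In the double mutant table, control 0 was at −0.16 for these subunits and double mutant 0 at −0.11. The members together took 3.81%, 3.26% and 2.46% of summed FPKM in Smad4 KO libraries and 3.07%, 3.83% and 3.36% in double mutants, against 2.77%, 4.37% and 4.15% in controls.

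**Figure D5:**
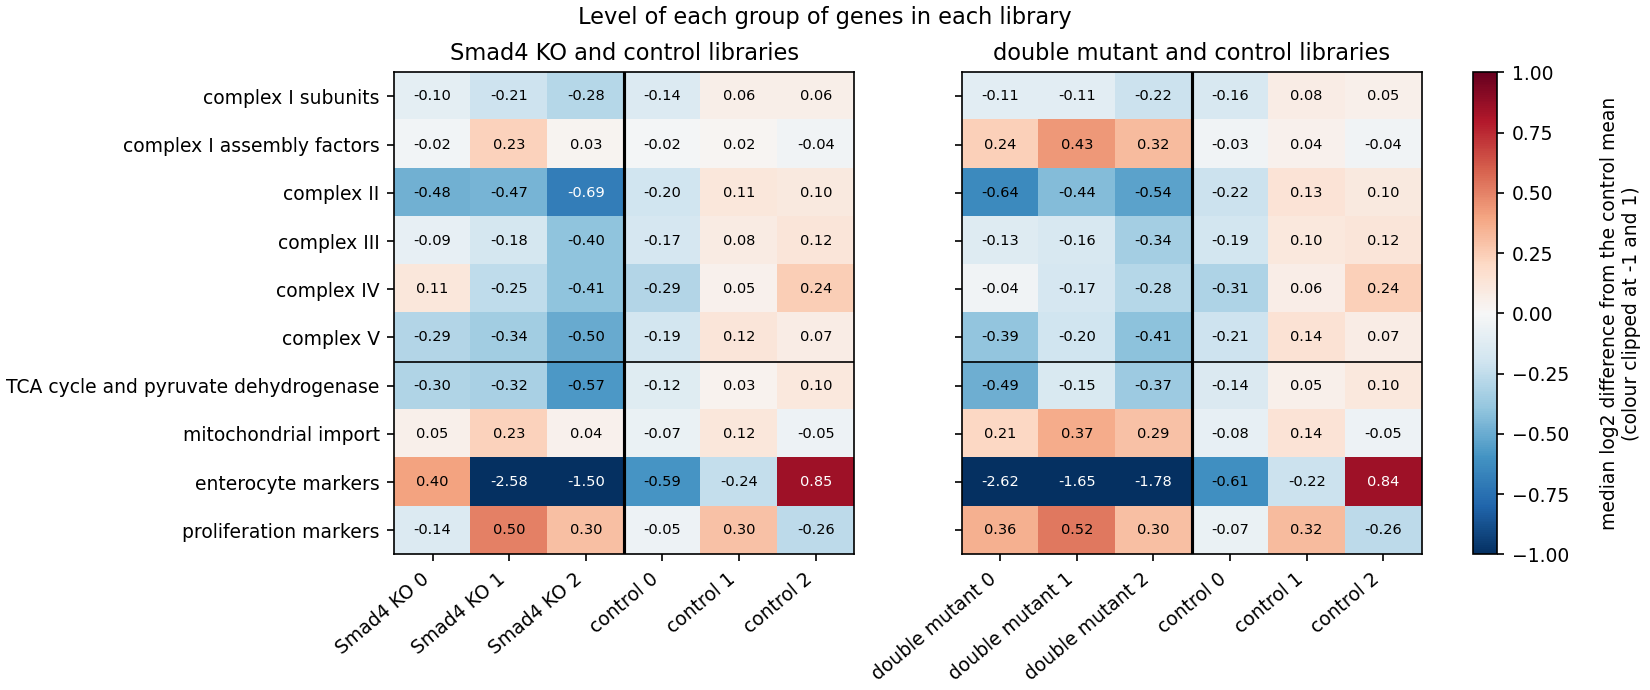
Median log2 difference from the control mean for groups of genes (down the side) in each library (columns), with Smad4 KO and control libraries on the left and double mutant and control libraries on the right. Complex II is lower in all mutant libraries than in any control of the same table. Control 0 resembles the mutants for the complex I subunits and for complexes III and IV. Enterocyte markers are lowest in all double mutants and in Smad4 KO libraries 1 and 2.

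The tricarboxylic acid cycle and pyruvate dehydrogenase, which supply the NADH and succinate, had mostly negative fold changes. All 17 genes of the list had a negative fold change in Smad4 KO crypts (median −0.40, 0 called by limma). All Smad4 KO libraries were below all controls for 10 of them, against 12.2% of all genes, and 8 were lower at an unadjusted p below 0.05, against 9.34%. In double mutants 16 of 17 were negative (median −0.31) and 2 fell, near the 9.09% of all genes that fell. Ogdh, of the 2-oxoglutarate dehydrogenase complex, had 55.1, 68.7 and 63.4 FPKM in double mutants, against 102, 104 and 147 FPKM in controls, and fell by 0.89 (limma adjusted p = 0.0246). Sucla2, a subunit of succinyl-CoA ligase, the step before succinate dehydrogenase, had 49.7, 59.8 and 54.7 FPKM in double mutants, against 75.6, 91.5 and 99.2 FPKM in controls, and fell by 0.68 (adjusted p = 0.0254). Both calls ended without any single double mutant library (limma adjusted p up to 0.102). The 14 genes for cytochrome c and mitochondrial carriers had medians of −0.25 in Smad4 KO and −0.26 in double mutant crypts, with 0 called by limma in either. At an unadjusted p below 0.05, 3 of them were lower in Smad4 KO and 4 in double mutant crypts, against 9.34% and 18.4% of all genes.

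Of 21 regulators of mitochondrial biogenesis, 2 were called higher and 3 lower in double mutants, close to the 9.39% and 9.09% of all genes, with a median of 0.06. Ppargc1a, the coactivator PGC-1alpha that drives respiratory genes, had 1.89, 2.47 and 1.69 FPKM in double mutants, against 9.49, 13.5 and 15.8 FPKM in controls. Ppargc1a fell by 2.19 (limma adjusted p = 0.00791). It had 4.37, 2.13 and 1.46 FPKM in Smad4 KO crypts, against 9.20, 12.8 and 15.1 FPKM in controls, without overlap (log2 fold change −1.93, limma adjusted p = 0.111). Pprc1, a relative of PGC-1alpha that is known to respond to growth signals, rose to 28.3 ± 0.818 FPKM in double mutants, against 16.2 ± 2.73 FPKM in controls (SD, n = 3 each), a log2 difference of 0.78 (limma adjusted p = 0.0177). Polg, the catalytic subunit of the mitochondrial DNA polymerase, rose as well (adjusted p = 0.0355), while its accessory subunit Polg2 (adjusted p = 0.0407) and Mterfd3 (adjusted p = 0.0285) fell. Of these 21 genes, 0 were called by limma in Smad4 KO crypts. At an unadjusted p below 0.05, 3 were higher and 1 lower there, against 9.76% and 9.34% of all genes. The call of Ppargc1a ended without double mutant 2 (adjusted p = 0.0525), that of Pprc1 without double mutant 0 or 2, and those of Polg, Polg2 and Mterfd3 without any single double mutant library.

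Of 24 genes of mitochondrial protein import, 8 rose and 0 fell in double mutants, where 9.39% of all genes rose. The double mutants lay above all controls for 13 of the 24, against 21.3% of all genes, and the median was 0.30, against −0.00. The 8 that rose were Tomm40, Tomm22 and Tomm5 of the outer membrane pore, Timm50, Timm9 and Timm13 of the inner machinery, and the chaperonins Hspd1 and Hspe1. Tomm40, the pore itself, had 118, 114 and 103 FPKM in double mutants, against 65.3, 67.2 and 62.8 FPKM in controls, and rose by 0.77 (limma adjusted p = 0.0126). Tomm40 had 91.1, 95.7 and 87.8 FPKM in Smad4 KO crypts, against 63.3, 63.4 and 60.2 FPKM in controls, without overlap and not called. The median of the list was 0.10 there, with 0 called by limma. At an unadjusted p below 0.05, 7 were higher, against 9.76% of all genes. The call of Tomm40 ended without double mutant 0 (adjusted p = 0.0517) or 2 (adjusted p = 0.0618), and the calls of the other 7 ended without any single double mutant library.

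Assembly factors outside the symbol rule, a list that spans complexes I to V, showed 3 called higher and 1 lower of 38 in double mutants. These shares were no more than the 9.39% and 9.09% of all genes, and the median was 0.02. Sdhaf1, which protects the iron-sulfur clusters of Sdhb during assembly, rose to 33.6 ± 3.84 FPKM in double mutants, against 22.0 ± 0.476 FPKM in controls (SD, n = 3 each), a log2 difference of 0.58 (limma adjusted p = 0.0203). Cox18 and Coa6, both for complex IV, rose by 0.65 and 0.39, and Cox15, of haem A synthesis, fell by 0.36 (limma adjusted p = 0.0269, 0.0462 and 0.0328). The median of the 37 tested was −0.06 in Smad4 KO crypts, with 0 called by limma. At an unadjusted p below 0.05, 1 was higher and 3 lower there, against 9.76% and 9.34% of all genes. Of 13 genes for ubiquinone synthesis, Pdss1 rose and Coq9 fell in double mutants, and the medians were −0.07 in Smad4 KO and −0.01 in double mutants. Sdhaf1 lost its call without double mutant 0 or 2, and the other calls of this paragraph ended without any of the 3 double mutants (limma).

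Glycolysis genes had a median of −0.26 in double mutants, with 3 called higher and 1 lower of 21, against 9.39% and 9.09% of all genes. Pdk2, a kinase that shuts off pyruvate dehydrogenase, fell to 11.6, 8.83 and 10.7 FPKM in double mutants, against 31.7, 32.9 and 39.9 FPKM in controls (log2 fold change −1.66, limma adjusted p = 0.00694), and its call held in every alternative tried. Pdk2 had 14.8, 11.1 and 15.3 FPKM in Smad4 KO crypts, against 30.7, 31.1 and 38.2 FPKM in controls, not called but without overlap. Hk2, an inducible hexokinase, had 20.7, 27.8 and 21.5 FPKM in double mutants, against 14.7, 10.6 and 10.2 FPKM in controls, and rose by 0.93 (limma adjusted p = 0.0236). Slc2a1, the glucose transporter GLUT1, and Pfkl, a phosphofructokinase, rose by 0.80 and 0.57 (limma adjusted p = 0.0273 and 0.0441). The calls of Hk2, Slc2a1 and Pfkl ended without any single double mutant library. Subunits encoded by mitochondrial DNA were not analysed here.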

How the data were processed

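RNA from jejunal crypts was sequenced in 9 libraries with a TruSeq RNA kit, version 2, which does not mark strand, per the labels' protocols. The authors deposited FPKM in 2 tables of 23951 genes, one with Smad4 KO and control libraries and one with double mutants and the same controls. The submitters' processing notes name Cuffdiff 2.2.1, Cuffnorm 2.2.1 and TopHat2 2.1.1 on build mm9, with no gene annotation named. Columns of the double mutant table were matched to samples by their names. The tables were normalized separately, so every test was made within 1 table. Between them a control differed by 1 factor for all genes (1.03, 1.06 and 1.04). FPKM hold no read numbers, so no counting interval is given, and a 0 is reported as listed, since some genes that all cells use were listed near 0.

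Genes averaging 1 FPKM or more over the 6 libraries of a table were fitted with limma 3.58.1 (R 4.3.3) on log2(FPKM + 1), a pseudocount of 1 that understates changes of low genes, and a mean-variance trend was allowed. P-values are two-sided, adjusted by Benjamini-Hochberg over all genes tested, and called at 0.05. The fit was tested on simulated data. The members, gene lists, tests and named-gene rule were chosen with earlier results of these data known. The rule named, per comparison, up to 4 members of each complex with the smallest p, the highest member of each complex, all isoform pairs, members called against the direction of their complex, and up to 3 genes of each pathway list. Called genes of a list were named too. Members were assigned to complexes by textbook roles, with Ndufa4 and Ndufa4l2 in complex IV. Near-identical transcripts were found with BLAST 2.17.0 against the supplied GENCODE transcripts, and promoters come from RefSeq; these are of build GRCm38.p6, not mm9, and were joined by symbol (Python 3.11.15). Isoform shares were compared by exact permutation. Alternatives covered the pseudocount, filter, scaling, trend, a replicate block, the sex of the mice (inferred from sex-linked transcripts, since the labels give none) and each library left out.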

Additional observations from a re-analysis of the deposited data

How the results depend on the processing

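In Smad4 KO crypts 0 members were called in either direction under all 16 alternatives. The median over all members stayed below 0 in all of them, between −0.31 and −0.18 in Smad4 KO and between −0.31 and −0.12 in double mutants, and complex II stayed between −0.67 and −0.47 in Smad4 KO and between −0.65 and −0.45 in double mutants. The number of members called in double mutants (3 higher, 5 lower) did depend on the processing. Members called higher were 1 with no filter on low values (Ndufaf3) and 1 with sex, inferred from sex-linked transcripts, as a covariate (Ndufaf6). Members called lower were 2 after quantile normalization and 2 with sex as a covariate (Atp5sl and Cox7a1 each time). Scaling to equal sums without the 50 highest genes left 3 lower (Atp5sl, Cox7a1 and Sdhc). Leaving out 1 library gave 0 to 2 members called higher and 0 to 8 lower, with 0 in both directions without double mutant 0 or 2 and 8 lower without control 0. Equal-sums scaling moved the median of all genes in double mutants to 0.05.

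Same-numbered libraries had correlations of −0.11, 0.22 and −0.10 in Smad4 KO and 0.07, 0.13 and 0.04 in double mutants. The highest correlation with a control of another number was 0.21, −0.07 and 0.20 in Smad4 KO. In double mutants it was 0.03, −0.06 and −0.0065, below the same-numbered value each time. Correlations this small and few cannot decide whether the numbers pair the samples. With a replicate block, 0 members were called higher and 3 lower (Cox7a1, Sdha and Sdhc) in double mutants. Smad4 in Smad4 KO crypts kept its log2 fold change of −2.13 with the block at an adjusted p of 0.234, and had −2.10 at 0.0553 with sex as a covariate (limma).

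Genes named outside the rule, such as Atp5a1, Ndufb6, Ndufs5, Acta1 and Cidec, were not followed through the alternatives. Of Smad4 and the genes named by the rule, 56 of 59 kept their direction in Smad4 KO and 65 of 68 in double mutants. Those that turned did so when 1 library was left out, and none of them was called. In Smad4 KO the values then ran between −0.11 and 0.30 for Cox6a1, between −0.18 and 0.12 for Cox7a2 and between −0.20 and 0.11 for Cox8a, and the assembly factor median ran between −0.024 and 0.16. In double mutants they ran between −0.16 and 0.16 for Cox8a, between −0.23 and 0.074 for Cox7a2 and between −0.045 and 0.10 for Atp5s, and Cox8a was −0.11 with sex as a covariate. The causes were not tested.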
